A study of Mus musculus with 20 samples.

Results

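The 10 livers of mice that received an antioxidant with the CL diet, 5 with astaxanthin (CL + AX) and 5 with vitamin E (CL + VE), were pooled with equal weight and compared with the 5 livers of mice on the CL diet alone (CL). These are 15 of the 20 livers in the series, and the other 5 came from mice on normal chow (NC). All mice were male, C57BL/6J by the study's methods (a strain tag in the labels reads C56BL/6J), 7 weeks old at the start and killed after 12 weeks on their diet and a 2 h fast. NC was the chow CRF-1. Fat supplied 60% of the calories of the CL diet, to which sodium cholate had been added at 0.5% and cholesterol at 1.25%, and the CL + AX and CL + VE diets held the same components plus 0.02% astaxanthin or 0.02% vitamin E. No group received a supplement without the CL diet, so the comparison covers the supplements only in mice on that diet. Liver RNA of each mouse was hybridized to 1 Affymetrix Mouse Genome 430 2.0 array, which reads each transcript by 1 or more probe sets. A difference below is a difference in mean log2 signal, supplemented minus CL, and it counted as shared only where CL + AX minus CL and CL + VE minus CL had the same sign. Where a gene with opposite signs is given for its role, both group values stand beside it.

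Astaxanthin is a carotenoid and vitamin E a family of tocopherols and related molecules. Both dissolve in lipid, sit in membranes and lipoproteins, and quench radicals that would otherwise propagate the peroxidation of fatty acids. Cholate in a diet raises the uptake of cholesterol from the gut, and a diet rich in fat, cholesterol and cholate gives mice a fatty liver with inflammation and fibrosis. The pooled comparison addresses what the livers of both supplemented groups had in common against CL.

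No gene passed the test in either direction. Of 45037 probe sets, 0 were called higher and 0 lower at an adjusted p under 0.05 by limma with the Benjamini-Hochberg adjustment (0% in each direction), and the smallest adjusted p was 0.141. At an unadjusted p under 0.05, 1676 probe sets with the same sign in both groups were higher (3.72%) and 1437 lower (3.19%), and 6.95% of all probe sets had such a p when the sign rule was left out. The split between higher and lower depended on the scaling of the arrays. Higher ones made up 53.8% of these probe sets under quantile normalization. Their share was 45.5% when arrays were not scaled, 40.9% when they were centred on their medians, and 59.2% when scaled to a trimmed mean. Without scaling the median probe set lay 0.19 above CL in CL + AX and at -0.23 in CL + VE, and 18731 probe sets then had the same sign in both groups in place of 29151. The methods' t-test gave 1534 higher and 1937 lower before adjustment and 0 after it.

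**Figure D1:**
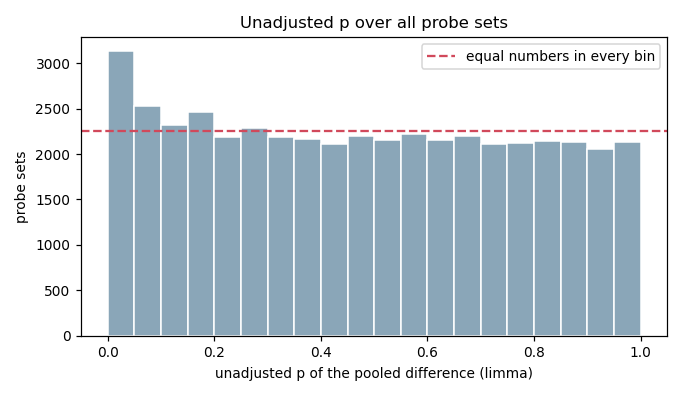
Number of probe sets (vertical axis) by the unadjusted p of the pooled difference (horizontal axis, bins 0.05 wide), over 45037 probe sets. The first bin holds 3130 probe sets and the bins above a p of 0.25 hold 2059 to 2292, and the dashed line marks equal numbers in every bin.

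Read as genes, each from its brightest probe set, 11541 of 18193 (63.4%) had the same sign in both supplemented groups. There were 6459 higher (35.5%) and 5082 lower (27.9%), the background for the same-sign counts of the lists below. Of all genes, 808 were higher (4.44%) and 457 lower (2.51%) with the same sign at an unadjusted p under 0.05. At or above the median signal these shares were 5.41% and 2.9%. Most lists below have nearly all their members there, so for them the latter shares are the nearer background. Of all probe sets, 64.7% had the same sign in both groups. Both signs use the same CL livers. Taken alone, CL + AX against CL gave 1 call among all probe sets at an adjusted p under 0.05 (0.00222%) and CL + VE against CL gave 0, and CL + VE against CL + AX gave 1 (0.00222%). The precision varied with the signal. For the 11398 genes at or above the median signal, the median 95% interval reached 0.24 to either side of the difference, and for 10970 of them (96.2%) the interval lay between -1 and 1, so that a doubling or a halving of the signal lay outside it. For the 6795 dimmer genes the median interval reached 1.23 to either side, and a difference of 1 on the log2 scale was not detectable there for most. Among genes at or above the median signal and with an unadjusted p under 0.05, the sign rule kept Usp25 (-0.012 in CL + AX and -0.37 in CL + VE) and left out Zbtb44 (0.0027 and -0.29), which lay nearest to it on either side.

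The supplemented groups differed from CL in median array signal in opposite directions. The median log2 signal of an array before normalization was 4.28 to 4.63 in CL, 4.72 to 4.79 in CL + AX and 4.09 to 4.37 in CL + VE, so every CL + AX array lay above every CL array and the CL + VE mean below the CL mean, and these shifts cancelled in the pooled difference of -0.0011 (two-sided exact permutation test of 10 against 5 arrays, p = 0.996). Of 8 such measures, none passed the adjustment over the 8 in the pooled comparison (smallest adjusted exact p = 0.394). The 3′/5′ log2 ratio of Actb, a sign of RNA length, was 1.01 to 1.25 in CL, 1.07 to 1.23 in CL + AX and 1.32 to 1.51 in CL + VE (pooled exact p = 0.0666), so every CL + VE array lay above every CL array. The mean ratio of both supplemented groups lay above that of CL for Actb (1.16 in CL + AX and 1.43 in CL + VE against 1.14). The same held for Gapdh (-0.14 and -0.033 against -0.17), so these shifts did not cancel in the pooled difference. The part of these ratios in the results below was not tested. The deviations of CL replicate 2 and CL + VE replicate 5 from their group means ran alike across the brighter probe sets, with r = 0.41 across probe sets, which are not independent replicates. Both arrays also stood apart in control measures. CL + VE replicate 5 had log2 ratios of 2.26 for the labelling control Dap (others of its group 0.99 to 1.16) and 3.05 for Thr (1.95 to 2.32). CL replicate 2 had an 18S rRNA signal of 9.98 (others 10.8 to 11.2). The part of these measures in the deviations was not tested.

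Among the genes at or above the median signal, the 8 with the smallest p that were higher in both groups were Nrd1, Utp3, Arcn1, Timm44, Zmat2, D8Ertd738e, Ppig and Slc6a9, and the 8 that were lower were Tmem170b, Taok3, Maf, Pcf11, AW549877, Slc25a13, Snap23 and Ccnl2. These 16 were picked by their p values, so their sizes are a description, and each adjusted p was between 0.141 and 0.330. Their differences from CL were small, 0.21 to 0.47 upward and -0.56 to -0.29 downward. In every one of the 8 higher genes all 10 supplemented livers lay above the CL mean, and in every one of the 8 lower genes all 10 lay below it. That too follows in part from the choice by p and is no separate result. Between CL + VE and CL + AX none of the 16 differed at an adjusted p under 0.05.

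Nrd1, which encodes the metalloendopeptidase nardilysin, had the smallest p. Its log2 signal was 7.98, 8.24, 8.11, 8.10 and 8.15 in the CL livers, 8.52, 8.56, 8.52, 8.38 and 8.44 in the CL + AX livers and 8.39, 8.40, 8.48, 8.40 and 8.38 in the CL + VE livers. Every supplemented liver lay above every CL liver. The NC livers, at 8.36 to 8.46, lay within the supplemented range of 8.38 to 8.56 except NC replicate 4, just below it. The pooled difference was 0.33 (SE 0.055, 95% interval 0.22 to 0.44, limma adjusted p = 0.141), a signal 1.26 times that of CL, with 0.37 in CL + AX and 0.29 in CL + VE, and both probe sets of the gene had this sign. Groups that do not overlap, as here, occurred for 33 of 18193 genes (0.181%), 19 with all 10 supplemented livers above the CL livers (0.104%) and 14 with all below (0.077%).

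Utp3, a factor of the small subunit processome that matures ribosomal RNA, had log2 signals of 8.60, 8.24, 8.49, 8.54 and 8.45 in CL. In CL + AX they were 8.64, 8.96, 9.08, 8.85 and 8.85, and in CL + VE 8.91, 9.09, 9.02, 9.14 and 8.78. The groups did not overlap, although CL + AX replicate 1 lay only just above the highest CL liver. The pooled difference was 0.47 (SE 0.094, adjusted p = 0.261), and the NC livers had 8.71 to 9.34. Slc6a9, a glycine transporter, also had no overlap, with 7.90 to 8.39 in the supplemented livers and 7.58 to 7.86 in CL (difference 0.42, SE 0.098, adjusted p = 0.327).

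Of the other higher genes, Arcn1, which encodes a coatomer (COPI) protein of vesicles between Golgi and ER, differed by 0.27 (SE 0.058), with 0.35 in CL + AX and 0.19 in CL + VE. Timm44, which couples the import channel of the inner mitochondrial membrane to its motor, differed by 0.30 (SE 0.068), with 9.14 to 9.57 in the supplemented livers against 8.81 to 9.21 in CL, and all NC livers lay above 9.57. Zmat2, a zinc finger protein of the spliceosome, differed by 0.37 (SE 0.085) and Ppig, a nuclear cyclophilin that binds splicing factors, by 0.31 (SE 0.072). Other probe sets did not all share the sign, which held for 1 of 3 probe sets of Ppig, 1 of 2 of D8Ertd738e and 2 of 3 of Arcn1, and for all 3 of Timm44 and of Zmat2. For all 8 higher genes the CL mean lay below the NC mean, by 0.24 to 0.89, but both differences use the same CL livers, so their opposite signs are no separate result.

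Among the lower genes, Taok3, a kinase of the STE20 family that acts in stress-activated MAP kinase pathways, was the one with the most separate groups. It had 9.60, 9.52, 9.52, 9.61 and 9.42 in CL. The CL + AX livers had 8.94, 9.14, 9.28, 9.21 and 9.35 and the CL + VE livers 9.08, 9.09, 9.18, 9.05 and 9.33. All 10 lay below the CL livers, the NC livers at 9.25 to 9.74 overlapped both, and the pooled difference was -0.37 (SE 0.075, adjusted p = 0.261). Another probe set of Taok3, singled out after its values were seen, gave -0.40 (SE 0.072, adjusted p = 0.144) also without overlap, while the remaining 2 of its 4 probe sets gave 0.080 and 0.0073.

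Maf, a transcription factor of macrophages, lymphocytes and sinusoidal endothelium, stood at 10.2, 9.93, 10.5, 10.4 and 10.1 in CL. With astaxanthin the livers had 9.81, 9.95, 9.80, 10.1 and 10.2, and with vitamin E 9.64, 9.69, 9.79, 9.62 and 9.66. The CL + VE livers all lay below the CL livers and the CL + AX livers overlapped them. The pooled difference was -0.41 (SE 0.089, adjusted p = 0.327) and all 6 probe sets of Maf had this sign. CL + VE was lower than CL + AX by 0.28 (unadjusted p = 0.0116, adjusted p = 0.382), and the NC livers, at 8.55 to 9.06, lay below all others. Markers of macrophages, lymphocytes and endothelium are given with their levels below, since in whole liver fewer cells of a type and less RNA per cell cannot be told apart.

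Of the remaining lower genes, Pcf11, a factor that cleaves and ends transcripts, had the largest difference, -0.56 (SE 0.12), with 6.07 to 7.06 in the supplemented livers and 6.90 to 7.45 in CL. Ccnl2, a cyclin of nuclear speckles that takes part in splicing, differed by -0.32 (SE 0.077). Slc25a13, the aspartate and glutamate carrier citrin of liver mitochondria, differed by -0.33 (SE 0.076). Snap23, a SNARE protein of the plasma membrane, had 7.89 to 8.25 in the supplemented livers and 8.27 to 8.42 in CL, with no overlap (difference -0.29, SE 0.067, adjusted p = 0.330), and 7.29 to 7.59 in NC. The signs of Arcn1 in the 2 groups no longer matched without scaling, and those of D8Ertd738e with median centring. So the supplemented livers were between NC and CL for Snap23, as they were for Maf apart from the overlap with CL, whereas for Taok3 they were below the mean of both.

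**Figure D2:**
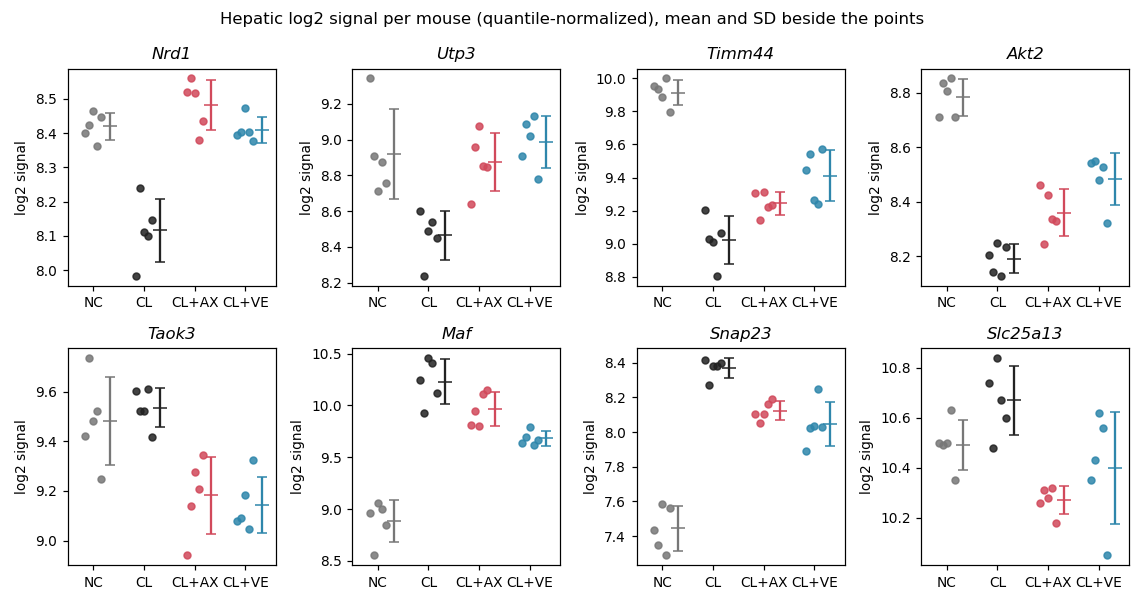
Quantile-normalized log2 signal (vertical axis) of 8 genes in each of the 20 livers by group, 1 point per mouse, with the group mean and SD beside the points. The 10 supplemented livers lie above the 5 CL livers for Nrd1 and Utp3 and below them for Taok3 and Snap23, and the groups overlap for Timm44, Akt2, Maf and Slc25a13.

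**Figure D3:**
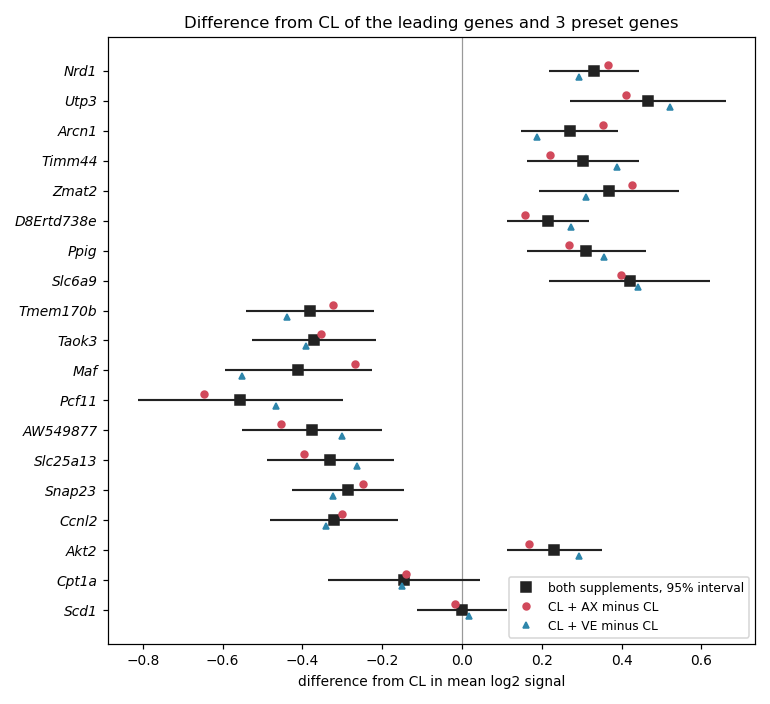
Difference from CL in mean log2 signal (horizontal axis) for the 16 genes with the smallest p and for Akt2, Cpt1a and Scd1. Black squares with lines are both supplements with their 95% interval, circles CL + AX minus CL and triangles CL + VE minus CL, and Cpt1a and Scd1 are those whose interval holds 0.

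Of the other genes without overlap, 6 are given as examples, picked with their values known. Mfn1, which fuses outer mitochondrial membranes, had 8.34 to 8.52 in the supplemented livers against 8.16 to 8.30 in CL (difference 0.19, SE 0.058, adjusted p = 0.502), and Fis1, an adaptor of mitochondrial fission, had 9.64 to 9.93 against 9.49 to 9.62 (0.18, SE 0.053, adjusted p = 0.473). Slc25a5, which exchanges ADP and ATP across the inner membrane, had 12.3 to 12.5 against 12.5 to 12.7 (-0.19, SE 0.046, adjusted p = 0.330). Also above CL were Hdac2, a histone deacetylase (0.23, SE 0.075), Bap1, a histone H2A deubiquitinase (0.26, SE 0.064) and Smarcc2, a subunit of the BAF remodelling complex (0.26, SE 0.070). None of the 6 passed the adjusted p.

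Akt2, the form of the kinase AKT through which insulin acts on liver metabolism, was named because the study's qPCR covered it, as were Cpt1a and Scd1. That qPCR followed the study's pathway results from these same arrays, so the choice was not blind to these data. The log2 signal of Akt2 was 8.20, 8.14, 8.25, 8.13 and 8.23 in CL, 8.46, 8.24, 8.43, 8.34 and 8.33 in CL + AX and 8.54, 8.55, 8.48, 8.53 and 8.32 in CL + VE. One liver of the supplemented mice, CL + AX replicate 2, fell within the CL range, and the NC livers lay above all others at 8.71 to 8.85. The pooled difference was 0.23 (SE 0.058, 95% interval 0.11 to 0.35), with an unadjusted p of 0.00059 and a limma adjusted p of 0.330, and 2 of its 3 probe sets had this sign. Cpt1a, the gate of fatty acid entry into mitochondria, differed by -0.15 (SE 0.092, 95% interval -0.34 to 0.045, adjusted p = 0.828). Scd1, which desaturates stearoyl-CoA, had -0.019 in CL + AX and 0.018 in CL + VE, opposite signs, and its pooled interval was -0.11 to 0.11.

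Around Akt2, the list of 28 genes of mTOR, AKT and insulin signalling had 13 members higher and 9 lower with the same sign, of which 3 and 2 had an unadjusted p under 0.05 (10.7% and 7.14%, beside 4.44% and 2.51% of all genes). Rps6kb2, a kinase of ribosomal protein S6, differed by 0.40 (SE 0.15), and by 0.26 without CL replicate 2. Rheb, the GTPase that activates mTOR complex 1, differed by -0.18 (SE 0.062) and Pik3r1, the regulatory subunit of PI3 kinase, by -0.34 (SE 0.13). The members thus lay on both sides, and the list's median difference was 0.016 (-0.033 without scaling), where the median of all genes was 0.017.

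The list with the lowest median was that of immediate early genes, which are transcribed within minutes of a stimulus such as a growth factor, stress or handling of the tissue. Of its 26 measured members, 13 were lower and 1 higher with the same sign in both groups, beside 27.9% and 35.5% of all genes. Of these, 3 and 0 had an unadjusted p under 0.05 (11.5% and 0%, beside 2.51% and 4.44% of all genes). The adjusted p was passed by 0. The median difference was -0.16, with -0.055 in CL + AX and -0.45 in CL + VE, and it was -0.21 to -0.15 under the 7 alternatives in which list medians were recomputed. The promoters of Fos, Dusp1 and Nr4a1, the 3 members at an unadjusted p under 0.05, are shown because textbooks describe their regulation by cAMP and calcium through CREB and, for Fos, by serum response factor at the CArG box. Each spans 300 bases around the start given by RefSeq for GRCm38.p6, with Fos at chr12:85473640-85473939 on the plus strand, Dusp1 at chr17:26508423-26508722 on the minus strand and Nr4a1 at chr15:101266596-101266895 on the plus strand. Capitals mark the letters TGACG on either strand (CGTCA where it lies on the other strand), the core that CREB and ATF proteins bind, together with the full palindrome TGACGTCA.
Fos promoter: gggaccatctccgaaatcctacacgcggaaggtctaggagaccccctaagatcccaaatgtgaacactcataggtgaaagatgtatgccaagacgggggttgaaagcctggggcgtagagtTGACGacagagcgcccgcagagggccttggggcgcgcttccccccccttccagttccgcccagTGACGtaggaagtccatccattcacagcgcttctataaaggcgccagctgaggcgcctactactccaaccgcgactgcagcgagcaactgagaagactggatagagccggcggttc
Dusp1 promoter: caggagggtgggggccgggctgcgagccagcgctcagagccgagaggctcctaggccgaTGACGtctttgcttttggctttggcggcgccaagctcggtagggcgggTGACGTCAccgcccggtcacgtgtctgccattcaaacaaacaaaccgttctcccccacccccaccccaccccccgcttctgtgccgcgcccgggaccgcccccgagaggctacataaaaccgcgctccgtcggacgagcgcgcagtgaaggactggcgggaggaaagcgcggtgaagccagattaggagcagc
Nr4a1 promoter: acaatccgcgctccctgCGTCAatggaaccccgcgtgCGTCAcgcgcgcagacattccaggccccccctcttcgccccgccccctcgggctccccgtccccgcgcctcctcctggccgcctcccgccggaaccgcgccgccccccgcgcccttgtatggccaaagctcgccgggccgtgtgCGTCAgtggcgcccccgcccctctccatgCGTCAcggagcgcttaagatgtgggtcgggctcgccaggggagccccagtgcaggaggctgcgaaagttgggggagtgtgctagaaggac
The core occurs 2 times in the window of Fos, 3 in that of Dusp1, where the full palindrome counts once on each strand, and 4 in that of Nr4a1. Of 32851 promoters of this length, 20.8% hold the core and 1.79% hold TGACGTCA, and no binding was measured here. The CArG box was searched as well and occurs 0 times in these windows, against 1.63% of all promoters. Only exact matches within the 300 bases were counted, so a site further upstream or with a differing letter would be missed. The 0 therefore cannot tell whether these genes have such a site. The window of Fosb, not shown, holds the core 1 time and the CArG box 0 times.

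Fos, a subunit of the AP-1 transcription factor, varied more than any gene above. Its log2 signal was 9.38, 10.7, 10.6, 10.5 and 11.5 in CL, 8.12, 8.29, 10.5, 9.63 and 11.5 in CL + AX and 7.63, 6.89, 8.31, 8.44 and 9.09 in CL + VE. All CL + VE livers lay below all CL livers, while the CL + AX livers spanned from below to the top of the CL range. The pooled difference was -1.71 (SE 0.64, 95% interval -3.04 to -0.39, unadjusted p = 0.0137, limma adjusted p = 0.597), with -0.95 in CL + AX and -2.48 in CL + VE. The NC livers ran from 6.03 to 10.8.

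Dusp1, a phosphatase that switches off MAP kinases, followed with 10.5, 11.5, 11.4, 11.3 and 11.3 in CL, 10.4, 10.1, 11.1, 10.3 and 11.5 in CL + AX and 9.98, 9.47, 9.95, 9.60 and 10.8 in CL + VE. Here the highest supplemented liver was CL + AX replicate 5, as for Fos. The difference for Dusp1 was -0.91 (SE 0.30, adjusted p = 0.542). Nr4a1, an orphan nuclear receptor, differed by -0.68 (SE 0.25, adjusted p = 0.595), with 6.49 to 7.82 in the supplemented livers and 6.72 to 8.61 in CL. Without CL replicate 3 this became -0.45. Fosb, another AP-1 subunit with a dim signal, differed by -0.69 (SE 0.33, unadjusted p = 0.0505).

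**Figure D4:**
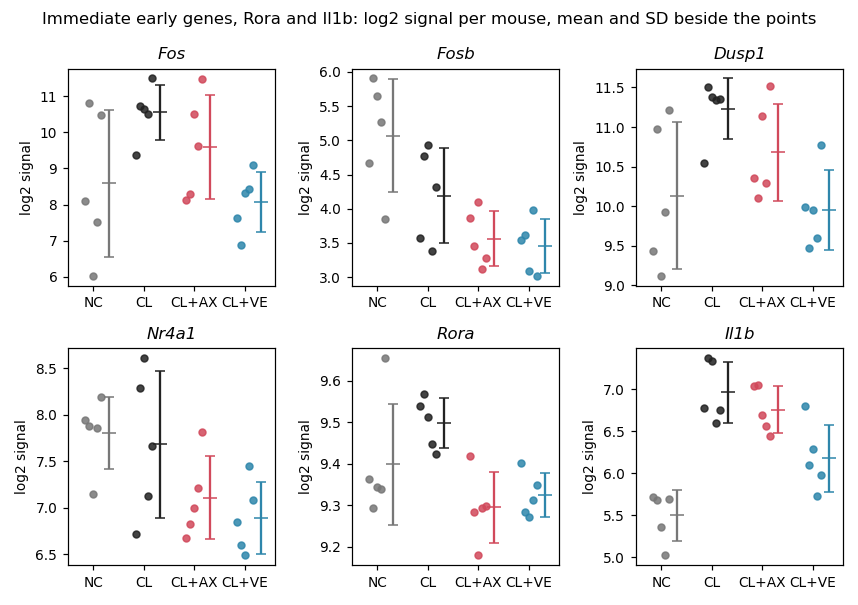
Log2 signal (vertical axis) of Fos, Fosb, Dusp1, Nr4a1, Rora and Il1b in each of the 20 livers by group, 1 point per mouse, with mean and SD beside the points. The CL + VE livers lie below the CL livers for Fos, the CL + AX livers reach into the CL range for Fos and Dusp1, and the supplemented livers lie below CL without overlap for Rora.

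The circadian clock list had a median of -0.071, with -0.20 in CL + AX and -0.054 in CL + VE. That of the cytosolic heat shock proteins was -0.026, with opposite signs in the groups, -0.088 in CL + AX and 0.020 in CL + VE. Other lists also lay below the median of all genes, 0.017, such as endothelial markers at -0.060. Of 19 clock genes, 0 were higher and 7 lower with the same sign, beside 35.5% and 27.9% of all genes. At an unadjusted p under 0.05, 1 was lower (5.26%, beside 2.51% of all genes). That gene was Rora, a nuclear receptor that activates transcription of Arntl, with 9.54, 9.57, 9.51, 9.45 and 9.42 in CL and 9.18 to 9.42 in the supplemented livers. The groups did not overlap, by a small margin, and the difference was -0.19 (SE 0.059, adjusted p = 0.508). Nr1d2 (-0.18), Clock (-0.23) and Per2 (-0.43, with -0.81 in CL + AX and -0.054 in CL + VE) did not reach an unadjusted p under 0.05. Without CL replicate 5 Per2 had -0.26, and its signs in the 2 groups no longer matched without CL replicate 4, CL replicate 5 or CL + VE replicate 3. The hour at which each liver was taken is not given in the sources used here, and its part in these values was not tested.

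Among 32 heat shock proteins and co-chaperones, 9 were higher and 12 lower with the same sign, and 1 and 2 at an unadjusted p under 0.05 (3.12% and 6.25%, beside 4.44% and 2.51% of all genes). Dnaja1 and Dnajb4, co-chaperones that stimulate HSP70, differed by -0.38 (SE 0.10, adjusted p = 0.387) and -0.28 (SE 0.073, adjusted p = 0.375). In each all 10 supplemented livers lay below the CL mean, a description only, since both were picked by their p. Hspa1a, an inducible HSP70, differed by -0.69 (SE 0.34, unadjusted p = 0.0553). Cct3, a subunit of the cytosolic chaperonin, was on the other side with 0.20 (SE 0.062, adjusted p = 0.517), although its signs in the 2 groups did not match without scaling.

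The lists of protein synthesis had medians near that of all genes. Of 46 cytosolic ribosomal proteins named by a probe set of their own, out of 82 listed, 18 were higher and 7 lower with the same sign, and 4 and 0 of them had an unadjusted p under 0.05 (8.70% and 0%, beside 4.44% and 2.51% of all genes). Rps15, Rpl37, Rpl13a and Rpsa, subunits of the cytosolic ribosome, had differences of 0.19, 0.29, 0.11 and 0.16 in that order. Of these, Rpl37 was 0.47 above CL in CL + AX and 0.11 in CL + VE (unadjusted p of the difference 0.0051, adjusted p = 0.302). The list's median was 0.031, with 0.058 in CL + AX and 0.0018 in CL + VE, and it was 0.0082 without scaling. For Rps15, Rpl13a, Rpsa and Rpl37 the signs in CL + AX and CL + VE no longer matched under at least 1 scaling (no scaling or median centring). Only 1 of the 2 probe sets of Rpsa had a positive pooled difference. Because ribosomal proteins have many processed pseudogenes, their probe sets may share signal.

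Of 36 translation initiation factors, 17 were higher and 8 lower with the same sign, and 0 passed the adjusted p. At an unadjusted p under 0.05 were 5 and 2 (13.9% and 5.56%, beside 4.44% and 2.51% of all genes). All 36 were at or above the median signal, where the shares were 5.41% and 2.9%. Eif4ebp1, which holds back the cap-binding factor EIF4E, differed by 0.22 (SE 0.078) and Eif3b, a scaffold of EIF3, by 0.16 (SE 0.063), whereas Eif3a, the largest EIF3 subunit, differed by -0.23 (SE 0.085). Without scaling the signs in the 2 groups no longer matched for any of these 3 genes, nor for Eif3b without CL replicate 3. The sign of the pooled difference was shared by 2 of 3 probe sets of Eif4ebp1 and 3 of 4 of Eif3a. The median was 0.041, and 0.0050 without scaling. Among 27 EIF2 kinases and ATF4 targets 1 gene on each side had an unadjusted p under 0.05. Each is 3.7% of the list, beside 4.44% higher and 2.51% lower over all genes. Eif2ak1, the EIF2 kinase that senses heme, was the higher one, with 7.18 to 7.66 in the supplemented livers against 7.11 to 7.27 in CL. Its difference was 0.25 (SE 0.081), a sign shared by 3 of its 5 probe sets. Slc7a5, an amino acid transporter that ATF4 induces, had a dim signal and a difference of -1.11 (SE 0.50).

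Mitochondrial ribosomal proteins lay on both sides of CL, with a median of 0.028 that was -0.027 without scaling. Of 70, 26 were higher and 10 lower with the same sign, and 7 and 2 at an unadjusted p under 0.05 (10% and 2.86%, beside 4.44% and 2.51% of all genes). Mrpl37 (0.23, SE 0.072) and Mrpl28 (0.15, SE 0.056) were above the CL mean in all 10 supplemented livers, a description only, since both were picked by their p. Their signs in the 2 groups did not match without scaling, nor did those of Mrpl28 with median centring. Mrpl18, a large subunit protein, had no overlap, with 8.86 to 9.26 in the supplemented livers and 9.28 to 9.56 in CL (-0.28, SE 0.067, adjusted p = 0.330). For the respiratory chain, 34 complex I genes had a median difference of 0.00073 and 39 genes of complexes II to V one of 0.0023. In both sets the group medians had opposite signs, -0.056 and -0.039 in CL + AX and 0.055 and 0.042 in CL + VE. At an unadjusted p under 0.05 there was 1 gene on each side in the first set and 0 in the second. In the first set that is 2.94% each, beside 4.44% higher and 2.51% lower over all genes.

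RNA processing contributed leading genes on both sides, and so did its list. Of 41 genes of splicing and nuclear RNA binding, 3 above CL and 5 below it had an unadjusted p under 0.05 (7.32% and 12.2%, beside 4.44% and 2.51% of all genes). Clk1 and Clk4, kinases that phosphorylate SR splicing factors, differed by -0.35 (SE 0.11) and -0.23 (SE 0.080), and Malat1, a long noncoding RNA of nuclear speckles, by -0.49 (SE 0.17, all 7 of its probe sets with this sign). Sf3b2, a subunit of the U2 particle, differed by 0.28 (SE 0.086), with signs that did not match without scaling. The list's median was 0.022 here and -0.023 without scaling, so its side depended on the scaling.

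The antioxidant enzymes and targets of NFE2L2, the transcription factor that answers oxidative stress, lay close to CL, with a median of 0.027 that turned negative without scaling and with median centring. Of 40 measured, 16 were higher and 7 lower with the same sign, and 1 on each side had an unadjusted p under 0.05 (2.5% each, beside 4.44% and 2.51% of all genes). Srxn1, which reactivates oxidized peroxiredoxins, differed by 0.28 (SE 0.13, adjusted p = 0.703). Gclm, the regulatory subunit of the enzyme that begins glutathione synthesis, differed by -0.20 (SE 0.076, adjusted p = 0.619), nearly all of it in CL + VE (-0.36, and -0.034 in CL + AX). The 2 supplemented groups differed for Gclm at an unadjusted p of 0.0012 (adjusted p = 0.215), and its CL + AX difference changed sign without scaling and when certain single arrays were left out.

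Genes that take up and move the supplements themselves were also near CL. Of 20 genes of vitamin E and carotenoid handling, 7 were higher and 1 lower with the same sign, beside 35.5% and 27.9% of all genes. At an unadjusted p under 0.05, 1 was higher (5%, beside 4.44% of all genes). It was Lrp1, a receptor for lipoprotein remnants, at 10.4 to 10.9 in the supplemented livers and 10.3 to 10.6 in CL (0.24, SE 0.067, adjusted p = 0.416). Of its 2 probe sets 1 had this sign, and the signs in the 2 groups did not match with median centring. Cyp4f13, of the family that starts the breakdown of tocopherols, differed by 0.20 (SE 0.11), and Cd36, a scavenger receptor that also takes up carotenoids, by -0.24 (SE 0.20). The signs of Cyp4f13 did not match without scaling, and Cd36 had -0.11 without CL replicate 2 and -0.16 without CL replicate 4.

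In lipid metabolism the pooled differences were few. Of 22 genes of cholesterol synthesis, 1 above CL (4.55%, beside 4.44% of all genes) and 0 below it had an unadjusted p under 0.05. It was Nsdhl, a sterol dehydrogenase, with a difference of 0.33 (SE 0.11, adjusted p = 0.545) in both supplements alike (0.33 in each), and with 7.89 to 8.45 in NC against 6.37 to 7.07 in CL. Among 25 genes of fatty acid and triacylglycerol synthesis, 3 were higher and 6 lower with the same sign, beside 35.5% and 27.9% of all genes. At an unadjusted p under 0.05, 1 was higher (4%, beside 4.44% of all genes) and 0 lower. It was Acaca, which makes malonyl-CoA (0.31, SE 0.11), while the list's median was -0.014. At the same unadjusted p the next list was also mixed. Of 33 PPARA targets and genes of fatty acid oxidation 2 were higher and 2 lower (6.06% each, beside 4.44% and 2.51% of all genes). Ppara itself, the nuclear receptor of fatty acid oxidation, differed by -0.27 (SE 0.091, adjusted p = 0.545), with -0.28 in CL + AX and -0.26 in CL + VE, and its partner Rxra by 0.16 (SE 0.058, adjusted p = 0.591). Acadvl, a dehydrogenase of long acyl chains, and Etfa, which takes up its electrons, had 0.10 and -0.12, and Pnpla2, the triacylglycerol lipase of lipid droplets, 0.27 (SE 0.12). The signs of Acadvl and Rxra in the 2 groups no longer matched without scaling and with median centring, those of Pnpla2 without scaling, and those of Etfa with median centring.

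Markers of inflammation and fibrosis set CL apart from NC, and 0 of them passed the adjusted p in the pooled comparison. The 24 macrophage and Kupffer cell markers had 0 members at an unadjusted p under 0.05 in either direction and a median of 0.022 (-0.029 without scaling), with 0.16 in CL + AX and -0.095 in CL + VE. Summed over the markers, their signal ran from 11540 to 30290 in CL, 10630 to 24120 in CL + AX, 9162 to 25230 in CL + VE and 2446 to 6775 in NC, so the ranges of the groups on the CL diet overlapped almost entirely. Cd68, a lysosomal protein of macrophages, had opposite signs, 0.24 in CL + AX and -0.22 in CL + VE, as did Lyz2, lysozyme, with 0.098 and -0.36. Mrc1, the mannose receptor, differed by -0.12 (SE 0.16), and by -0.050, -0.062 and -0.20 without CL replicate 3, 2 and 5 in that order.

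Of 38 cytokines, chemokines and receptors, 1 below CL (2.63%, beside 2.51% of all genes) and 0 above it had an unadjusted p under 0.05. It was Il1b, interleukin 1 beta, with 6.77, 7.37, 7.34, 6.59 and 6.75 in CL, 7.04, 7.05, 6.69, 6.57 and 6.45 in CL + AX and 6.80, 6.09, 6.28, 5.73 and 5.98 in CL + VE. The CL + AX livers overlapped CL, as did 1 CL + VE liver. The difference was -0.50 (SE 0.17, adjusted p = 0.550), with -0.21 in CL + AX and -0.79 in CL + VE, and the difference between the supplements had an unadjusted p of 0.0084 (adjusted p = 0.349). The NC livers had 5.02 to 5.72.

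Among 36 stellate cell and fibrosis markers 3 below CL and 0 above it had an unadjusted p under 0.05 (8.33%, beside 2.51% of all genes). With the same sign, 8 were higher and 9 lower. The list's median was -0.040, with opposite signs in the groups, 0.059 in CL + AX and -0.13 in CL + VE. Ccn1 and Ccn2, matricellular proteins that the YAP pathway induces, differed by -0.93 (SE 0.39) and -0.59 (SE 0.23), and Lrat, which stores retinol as esters in stellate cells, by -0.37 (SE 0.18). Of the collagens, Col1a1 had 0.36 (SE 0.33, adjusted p = 0.900), and Col3a1 had opposite signs, 0.057 in CL + AX and -0.31 in CL + VE. The summed signal of the list was 20350 to 31010 in CL, 16950 to 28950 in CL + AX and 18000 to 30930 in CL + VE. Leaving out CL replicate 2 and CL + VE replicate 5 together, as chosen after seeing the data, moved the list's median from -0.040 to 0.025 and that of the macrophage markers from 0.022 to 0.16.

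Endothelial markers had a median of -0.060, with opposite signs in the groups, -0.18 in CL + AX and 0.018 in CL + VE. Of 21 such markers, 3 were higher and 8 lower with the same sign. Gpr182, a chemokine-scavenging receptor of sinusoids, differed by -0.29 (SE 0.11). Their summed signals were 4436 to 5642 in CL, 3911 to 4765 in CL + AX and 4253 to 5539 in CL + VE. Lymphocyte markers had a median of -0.049, with opposite signs in the groups, 0.15 in CL + AX and -0.19 in CL + VE. Of 22 measured, 8 were higher and 8 lower with the same sign. Cd8a, of cytotoxic T cells, differed by 0.68 (SE 0.25, adjusted p = 0.582) on a dim signal, 4.41 to 5.29 against 3.19 to 4.95 in CL. Without CL replicate 2 Cd8a had 0.43, and 3 of its 5 probe sets had this sign. The lymphocyte markers' summed signals were 2184 to 4309 in CL, 1310 to 5483 in CL + AX and 2090 to 3966 in CL + VE. Hepatocyte markers summed to 203200 to 215900 in CL, 201600 to 206900 in CL + AX and 206300 to 213400 in CL + VE, and Alb, albumin, had opposite signs, -0.10 in CL + AX and 0.054 in CL + VE. These markers were bright in every group, so the label liver was borne out in all 3 groups.

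**Figure D5:**
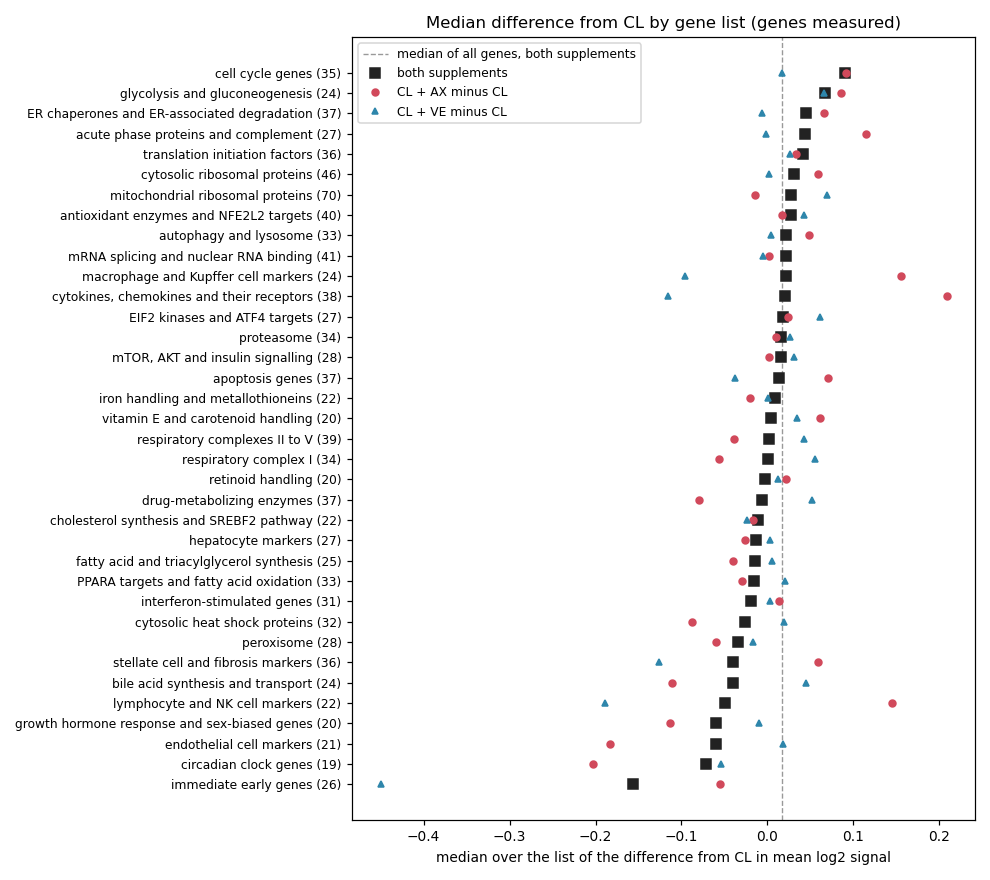
Median over each gene list of the difference from CL in mean log2 signal (horizontal axis), for lists with at least 15 measured genes, whose numbers stand in brackets. Black squares are both supplements, circles CL + AX minus CL and triangles CL + VE minus CL, and the dashed line is the median of all genes, 0.017. Immediate early genes lie lowest at -0.16, and for cytokines and macrophage markers the circles and triangles lie on opposite sides of the line.

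The lists of death and degradation were mixed. Of the genes named here the signs in the 2 groups no longer matched without scaling for Bcl2l1, Map1lc3a, Atp6v1d and Npc1, nor with median centring for Diablo. Of 37 apoptosis genes 4 above CL and 2 below it had an unadjusted p under 0.05 (10.8% and 5.41%, beside 4.44% and 2.51% of all genes), among them Diablo, which releases caspases from their inhibitors (0.20, SE 0.064), Bcl2l1, an inhibitor of apoptosis (0.22, SE 0.094), and Bak1, which permeabilizes mitochondria (0.30, SE 0.14), so promoters and an inhibitor of cell death lay on the same side. Of 33 autophagy and lysosome genes 3 were higher and 2 lower (9.09% and 6.06%, beside 4.44% and 2.51% of all genes). Map1lc3a, a protein of autophagosome membranes, differed by 0.23 (SE 0.065), Ulk1, the kinase that starts autophagy, by 0.21 (SE 0.085), and Atp6v1d, a subunit of the lysosomal proton pump, by 0.26 (SE 0.081), while Npc1, which exports cholesterol from lysosomes, differed by -0.24 (SE 0.080). Of 37 ER chaperones and genes of ER-associated degradation, 2 were higher at an unadjusted p under 0.05 (5.41%, beside 4.44% of all genes). They were Derl1 (0.27, SE 0.087, 2 of 4 probe sets with this sign) and Wfs1 (0.34, SE 0.12), both ER membrane proteins. In the same list 0 were lower at such a p.

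Among 809 genes at or above the median signal that differed between CL and NC by at least 1 on the log2 scale at an adjusted p under 0.05 (23.3% of all genes passed that p), 648 were higher and 161 lower in CL. For 799 of them the 95% interval of the pooled difference did not reach the NC mean, taken without its own error, and for 10 it did. A full return to the NC level in the supplemented livers was thus outside the interval for nearly all of these genes, while partial differences within the interval remain possible. The genes were picked by their CL to NC distance, which uses the same CL livers. NC arrays also differed from CL arrays in control measures. The 3′/5′ log2 ratio of the labelling control Dap was 2.97 to 3.39 in NC and 1.12 to 1.45 in CL. That of Gapdh was 0.38 to 0.78 and -0.26 to -0.086, and the 18S rRNA signal 8.36 to 9.33 and 9.98 to 11.2. The part of these measures in the distance to NC was not tested.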

How the data were processed

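Livers of 20 mice were measured on 1 array each. The authors computed MAS5 intensity values with Microarray Suite, and their analysis used the Subio platform. As deposited, the table gives linear intensity values of 45101 probe sets, not scaled between arrays, since array medians ran from 13.0 to 27.7. The 64 control probe sets were removed, and log2 intensities were quantile normalized. limma 3.58.1 (R 4.3.3) fitted the 4 groups over 20 arrays, with a variance prior that follows the mean signal and 16 residual degrees of freedom. The contrast was the mean of CL + AX and CL + VE minus CL, with the Benjamini-Hochberg adjustment over 45037 probe sets and a threshold of 0.05, and a call also required the same sign in both groups. A gene was read from its brightest probe set that names it alone (34945 probe sets name 1 gene, 932 several, 9160 none). The platform annotation supplied names.

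Members and the 39 gene lists were chosen with earlier results of these data known. Named genes were the 8 smallest p values per direction at or above the median signal, up to 4 same-sign members of each list with the smallest p, of which the text gives a part, and Akt2, Cpt1a and Scd1. One further gene in the rule is not reported here. The lists of retinoid handling, peroxisome, bile acids, proteasome, interferon, acute phase, bile duct, neutrophil, red blood cell, drug metabolism, cell cycle, glycolysis, iron and growth hormone genes are given in the closing section. Lists were described by counts and medians without a test. Array measures were compared by exact permutation. Nothing in the sources says that litters or cages were separated, so p values measure the spread between these mice. The number of arrays limits the precision. The fit was tested on simulated data. Alternatives were other scalings, a pseudocount of 16, a filter on dim probe sets, other fits, the replicate number as a block, the methods' t-test and single arrays left out. Promoter sequences came from RefSeq.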

Additional observations from a re-analysis of the deposited data

Results flagged for a closer look

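In 14 of 270 groups of 5 livers (5.19%), tested over the named genes, the highest or lowest liver lay so far from the other 4 that its gap exceeded Dixon's 95% critical value of 0.71 of the range, and chance alone flags about 1 in 20 groups. CL + VE replicate 5 was the highest liver for Eif2ak3 at 8.323 (others 7.292 to 7.509) and for Dcn at 12.12 (others 11.21 to 11.44), and the lowest for AW549877 at 8.285 (others 8.582 to 8.671). CL replicate 2 was the highest for Dcn at 12.24 (others 11.77 to 11.9) and the lowest for Snap23 at 8.27 (others 8.381 to 8.416). CL replicate 1 was the lowest for Dusp1 at 10.55 (others 11.34 to 11.51) and for Ccn2 at 7.404 (others 8.52 to 8.975), and CL replicate 3 the highest for AW549877 at 9.096 (others 8.737 to 8.832). CL + AX replicate 1 was the highest for Ephx1 at 12.42 (others 12.04 to 12.15) and the lowest for Bcl2l1 at 7.364 (others 7.779 to 7.942), and CL + AX replicate 2 the highest for Rpl37 at 9.629 (others 9.257 to 9.354). CL + VE replicate 3 was the highest for Nrd1 at 8.475 (others 8.376 to 8.404) and the lowest for Mrpl28 at 8.986 (others 9.109 to 9.136), and CL + VE replicate 1 the lowest for Wfs1 at 6.302 (others 6.858 to 7.051). All values are log2 signals. No named gene differed between CL + VE and CL + AX at an adjusted p under 0.05, the smallest being 0.215, and 19 of 90 did at an unadjusted p under 0.05.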

How the results depend on the processing

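Under most alternatives no probe set passed the adjusted p of the pooled difference with the same sign in both groups. The exceptions were single dim or secondary probe sets. There was 1 lower call without the NC arrays (Ralgapa1, adjusted p = 0.0191) and 1 with a pseudocount of 16 (Ntn4, adjusted p = 0.0182). When single arrays were left out, 0 were called higher, and 0 to 1 lower, the 1 being Cflar without CL + AX replicate 5 (adjusted p = 0.0202). At an unadjusted p, same-sign probe sets numbered 874 higher and 1048 lower without scaling, with 18731 of the same sign in all. With dim probe sets left out 14357 had the same sign. Leaving out single arrays gave 1433 to 1718 higher and 1118 to 1732 lower. With the replicate block the counts were 1735 higher and 1539 lower, with 0 called. Deviations of same-numbered livers of CL and CL + AX correlated with 0.0415 to 0.312, and those of other numbers with -0.313 to 0.124. In that pair of groups 3 of 5 livers correlated best with their own number. Same numbers gave -0.2 to 0.123 for CL and CL + VE and -0.135 to 0.128 for CL + AX and CL + VE. There 1 of 5 livers was best with its own number in each pair. Whether the numbers mark pairs of livers was not tested. Without CL replicate 2 and CL + VE replicate 5, chosen after seeing the data, 0 were called and the smallest adjusted p was 0.0925. Averaging all probe sets of a gene gave 0 genes called higher and 0 lower. Over 90 named genes and 26 settings, 2327 of 2339 differences kept their direction and 0 were called. The 12 that did not were all of Scd1, among them 0.01167 with trimmed-mean scaling, 0.001033 without the NC arrays and 0.004698 without both arrays, and -0.01343 to 0.01175 with single arrays left out. The cause was not tested. The signs in both groups matched under every setting for 55 of the 90 genes.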

Other observations

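Several gene groups outside the comparisons above had few members away from CL. Over all genes 35.5% were higher and 27.9% lower with the same sign. Of 27 acute phase and complement genes 9 were higher and 0 lower with the same sign, 1 of them at an unadjusted p under 0.05 (3.70%, beside 4.44% of all genes), and the median difference was 0.044, with 0.11 in CL + AX and -0.0014 in CL + VE. Of 24 genes of glycolysis and gluconeogenesis 11 were higher and 1 lower with the same sign, 1 at such a p (4.17%, beside 4.44%), with a median of 0.067. Of 28 peroxisomal genes 2 were higher and 12 lower, 1 lower at such a p (3.57%, beside 2.51% of all genes), with a median of -0.035. Bile acid genes had a median of -0.040, with -0.11 in CL + AX and 0.045 in CL + VE. Cyp7a1, the rate-limiting enzyme of bile acid synthesis, was among them with -1.04 in CL + AX and 0.82 in CL + VE.

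The remaining lists had these median differences. Retinoid handling had -0.0027, proteasome 0.016, interferon-stimulated genes -0.019, bile duct markers -0.012, drug-metabolizing enzymes -0.0057, cell cycle genes 0.091, iron handling 0.0087 and growth hormone response -0.059. The 11 measured neutrophil markers had 0.41, with 0.72 in CL + AX and -0.24 in CL + VE, and 0 at an unadjusted p under 0.05. The 4 measured red blood cell markers had 0.10.

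A dim probe set of Ralgapa1, a subunit of a GTPase-activating complex for RAL proteins, was picked out here with its values already known. Its log2 signal was 0.92 to 3.21 in CL, and -2.40 to -1.10 in CL + AX and -2.74 to -0.44 in CL + VE, a pooled difference of -3.94 (SE 0.67, limma adjusted p = 0.141). The NC livers spanned -2.59 to 2.31. The brightest probe set of the gene differed by 0.27 (unadjusted p = 0.0093), so the probe sets of this gene lay on opposite sides.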
